A study of Mus musculus with 12 samples.

Results

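Chromatin accessibility was compared between thymic iNKT1 and iNKT17 cells of C57BL/6 mice by ATAC-seq, in which a transposase inserts sequencing adapters into open DNA. The comparison took 4 of the 12 libraries of the study: 2 of C57BL/6 iNKT1 cells and 2 of C57BL/6 iNKT17 cells, all from untreated wild-type animals, and it used the 59317 of 63309 regions of 500 bp in which the linear mean reached 5 insertions per kb in either subset. The other libraries were C57BL/6 iNKT2 cells and the 3 subsets of Hivep3-/- mice, which lack the zinc finger protein Hivep3, with 2 libraries each. Thymocytes came from mice 8 to 9 weeks old. Before transposition, iNKT1 cells were sorted as CD122+ ICOS- and iNKT17 cells as CD122- ICOS+ Izumo1r- CD138+ from pooled thymi. The subsets were then transposed together and separated again by ICOS and CD138 only, since the reaction quenched the other stains, so the final iNKT1 gate was ICOS- CD138-. The titles number mice while the protocol describes pools, so the spread between replicate libraries may be technical. The p-values rest on this spread, pooled over the groups of all 12 libraries and not only the 4 compared. An exact permutation test of 2 against 2 libraries cannot go below 0.333.

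Invariant NKT cells carry a semi-invariant T cell receptor that binds lipids on CD1d, and they acquire effector programs while still in the thymus. iNKT1 cells depend on the T-box factor T-bet, produce IFN-γ and carry many receptors of natural killer cells, whereas iNKT17 cells produce IL-17 and respond to IL-23 and IL-1. ATAC-seq reads the regulatory DNA of such programs at promoters, which lie at transcription start sites, and at enhancers, which lie within introns or between genes.

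For 4 genes that mark a subset, the central 300 bases of the region with the largest difference are shown to give the DNA behind the values that follow. All are from the plus strand of mm10 (RefSeq GRCm38.p6) and were read 5′ to 3′, they overlap 0 bases of annotated exons, and capitals mark every match to the 12 motif families searched on both strands. The iNKT1 regions were a Tbx21 intron at chr11:97109021-97109320, intergenic DNA 5.35 kb upstream of the Ifng start site at chr10:118435548-118435847, and an Xcl1 intron at chr1:164931066-164931365. The iNKT17 region was the Il17a promoter at chr1:20730589-20730888. Tbx21 and Xcl1 are transcribed from the minus strand, and Ifng and Il17a from the plus strand.
Tbx21: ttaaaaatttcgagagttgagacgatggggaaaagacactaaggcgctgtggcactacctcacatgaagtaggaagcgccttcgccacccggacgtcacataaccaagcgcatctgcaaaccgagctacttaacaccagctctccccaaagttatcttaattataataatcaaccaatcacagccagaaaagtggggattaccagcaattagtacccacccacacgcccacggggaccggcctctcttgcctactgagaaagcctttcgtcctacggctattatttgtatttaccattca
Ifng: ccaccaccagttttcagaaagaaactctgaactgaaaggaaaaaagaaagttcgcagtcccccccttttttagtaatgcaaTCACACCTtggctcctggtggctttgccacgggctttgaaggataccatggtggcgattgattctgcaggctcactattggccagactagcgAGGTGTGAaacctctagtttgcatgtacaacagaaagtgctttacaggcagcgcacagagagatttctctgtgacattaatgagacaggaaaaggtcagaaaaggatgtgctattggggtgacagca
Xcl1: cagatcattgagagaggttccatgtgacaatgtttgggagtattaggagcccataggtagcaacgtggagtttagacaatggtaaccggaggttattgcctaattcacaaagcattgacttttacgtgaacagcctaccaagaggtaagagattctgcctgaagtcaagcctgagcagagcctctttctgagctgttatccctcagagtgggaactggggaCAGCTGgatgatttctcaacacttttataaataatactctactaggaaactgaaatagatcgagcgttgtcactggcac
Il17a: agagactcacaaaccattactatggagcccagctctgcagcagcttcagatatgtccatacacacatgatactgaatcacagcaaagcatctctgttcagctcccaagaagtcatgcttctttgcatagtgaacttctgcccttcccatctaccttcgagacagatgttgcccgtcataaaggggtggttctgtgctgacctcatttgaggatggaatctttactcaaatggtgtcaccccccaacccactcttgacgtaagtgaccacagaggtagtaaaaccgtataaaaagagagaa
The Ifng sequence held the T-box motif AGGTGTGA in both orientations, starting at bases 82 and 174, a motif found in 2.94% of all tested regions. The Xcl1 sequence held the E-box CAGCTG, found in 27.0% of all tested regions, at base 222. The windows of Tbx21 and Il17a matched none of the letters searched. A match is a description of the DNA and not a measured binding site.

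The values are log2 insertions per kb after normalization by the authors, and they do not keep the number of reads, so the sequencing depth is unknown. The number of distinct values up to the median, which grows with depth, was 134 to 170 in the 4 libraries. Replicates differed at a median of 0.17 log2 units in iNKT1 and 0.18 in iNKT17 cells. Near the lowest value of a library (-3.12 and -3.79 in iNKT1, -4.05 in both iNKT17 libraries) the size of a log2 difference is uncertain, and no difference is given where both libraries of a subset sat there. The region just inside the minimum, near Map4, had linear means of 5.0001 and 3.09 in iNKT1 and iNKT17 cells, and the region just outside, near Chn2, had 4.9971 and 1.60.

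A large part of the accessible genome differed between the subsets. In limma, 12168 of the 59317 regions (20.5%) were called, that is, had a Benjamini-Hochberg adjusted p under 0.1 and at least a 3-fold difference, with 5766 (9.72%) higher in iNKT1 and 6402 (10.8%) higher in iNKT17 cells. At any fold, 34650 regions (58.4%) had an adjusted p under 0.1, and both libraries of 1 subset lay above both of the other at 75.8% of regions. The median difference of the called regions, iNKT1 minus iNKT17, was 2.55 log2 units for those higher in iNKT1 and -2.94 for those higher in iNKT17 cells. Differences of at least 8-fold made up 37.0% and 48.6% of these regions. The subset with the lower value was below 5 insertions per kb, the accessibility minimum, at 75.5% and 78.9% of them. The thresholds set part of these shares, since a 3-fold lower value falls below the minimum wherever the higher value is itself low. The median in the higher subset was 15.9 insertions per kb for regions higher in iNKT1 and 16.9 for those higher in iNKT17 cells.

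**Figure D1:**
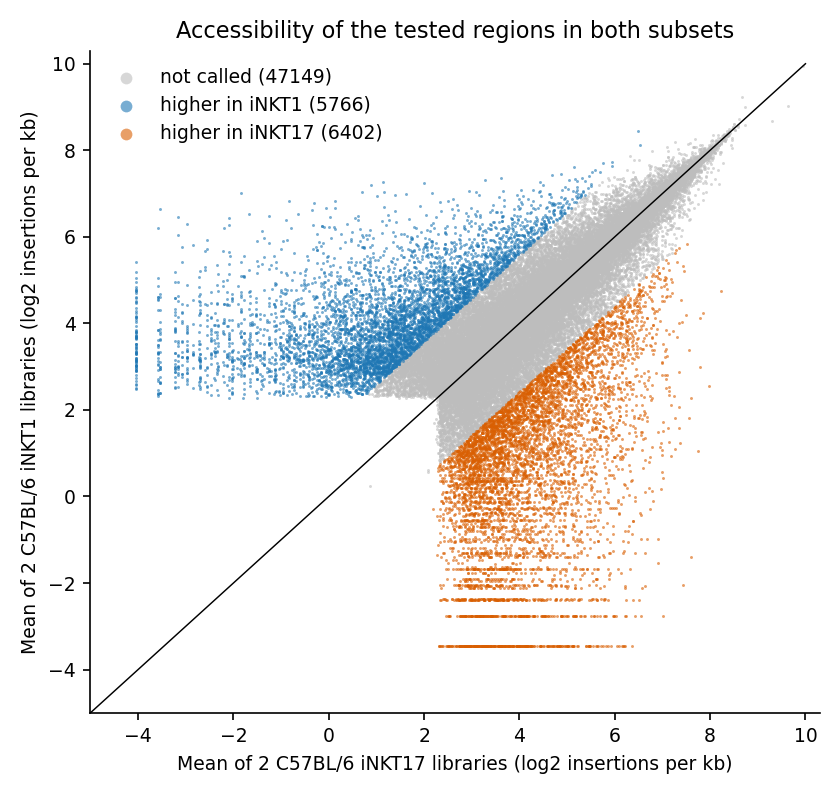
Mean log2 insertions per kb of the 2 C57BL/6 iNKT17 libraries (x axis) and the 2 iNKT1 libraries (y axis) for each of the 59317 tested regions, with the line of equal values. The 5766 regions called higher in iNKT1 (blue) and the 6402 called higher in iNKT17 cells (orange) reach down to the lowest values of the other subset, where the points form lines.

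The called regions were mainly distal. Promoters, defined as regions within 1 kb of a transcription start site, made up 32.7% of all tested regions but 8.78% of those higher in iNKT1 and 10.2% of those higher in iNKT17 cells. Of 19394 promoter regions 2.61% and 3.38% were called in these directions, against 13.2% and 14.4% of the 39923 other regions. Introns held 54.1% of the called regions in each direction. The median distance to the nearest start site of a gene was 20.2 kb for regions higher in iNKT1, 23.4 kb for those higher in iNKT17 and 5.50 kb for regions not called. In C57BL/6 iNKT2 cells, the mean was nearer to iNKT1 than to iNKT17 cells at 42.1% of the regions higher in iNKT1 and at 63.9% of those higher in iNKT17 cells. Over all tested regions this share was 48.3%. The iNKT2 mean was below 5 insertions per kb at 45.6% and 54.5% of the called regions, beside 16.3% of all tested regions. Regions entered the comparison through iNKT1 or iNKT17 cells only, so low iNKT2 values were not filtered out.

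Tbx21 encodes T-bet, the lineage factor of iNKT1 cells, and 7 of its 12 tested regions were called higher in iNKT1 and 0 in iNKT17 cells. Regions were assigned to a gene when they lay within it or less than 10 kb from its ends, which is called its locus here. An intronic region 2.60 kb into the gene read 6.59 and 6.72 in the iNKT1 libraries and 0.49 and -0.61 in the iNKT17 libraries, a difference of 6.71 ± 0.36 (SE, limma adjusted p = 7.87e-09). The intronic region whose sequence is shown read 5.26 and 5.44 against -2.41 and -2.29, and a region 2.99 kb upstream of the gene 4.41 and 4.68 against -2.41 and -1.15. The groups did not overlap at these regions, and the iNKT17 values were below the accessibility minimum. At the Tbx21 start site itself both subsets were open, with 5.15 and 5.20 in iNKT1 and 3.80 and 3.61 in iNKT17 cells, and the difference of 1.47 ± 0.18 (limma adjusted p = 1.54e-05) was under 3-fold.

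Ifng encodes IFN-γ, the main cytokine of iNKT1 cells, and 5 of its 6 tested regions were called higher in iNKT1 cells. The Ifng promoter read 6.48 and 6.40 in iNKT1 and 0.18 and 0.91 in iNKT17 cells, a difference of 5.89 ± 0.24 (limma adjusted p = 1.2e-09), or a linear mean of 86.8 against 1.51 insertions per kb. The regions 5.35 kb upstream and 5.42 and 6.37 kb downstream of the start site read 2.96 to 4.50 in the iNKT1 libraries, and both iNKT17 libraries were at their lowest value at all 3. The 6th region, 13.2 kb downstream of the start site, went the other way, with -3.12 and -1.01 in iNKT1 against 3.19 and 2.65 in iNKT17 cells (difference -4.98 ± 0.59, limma adjusted p = 9.75e-06).

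Across the 15 iNKT1 marker genes, 69 of 114 tested regions (60.5%) were called higher in iNKT1 and 1 (0.877%) higher in iNKT17 cells, with a median difference of 3.18 log2 units beside 0.01 over all tested regions. Of the marker genes, 13 had calls in the iNKT1 direction only, 1 in both directions and 1 had none, beside a call higher in iNKT1 cells in 16.9% of all 15398 genes with tested regions. All 5 regions of Xcl1, a chemokine of cytotoxic lymphocytes, and all 7 of Ccl5, another such chemokine, were called. The Xcl1 promoter read 6.42 and 6.47 in iNKT1 and -0.41 and 0.44 in iNKT17 cells (6.43 ± 0.28, limma adjusted p = 1.7e-09). The promoter of Nkg7, which encodes a protein of cytotoxic granules, read 7.32 and 7.19 against 1.29 and 0.97.

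**Figure D2:**
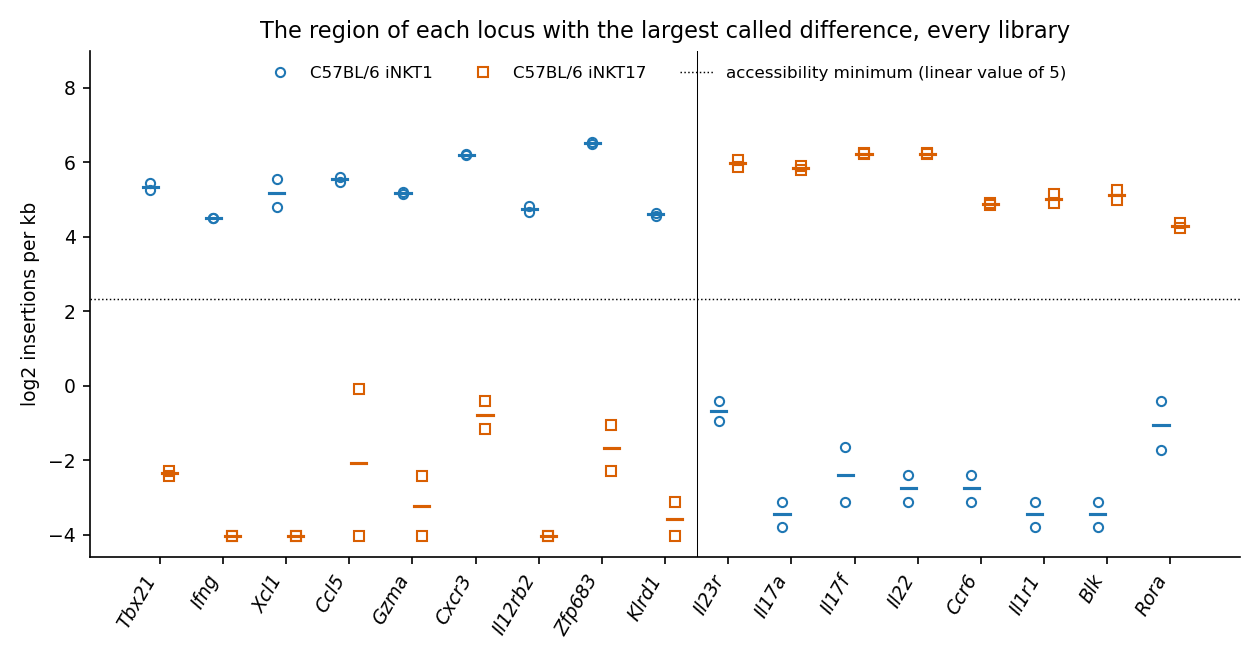
Log2 insertions per kb in each C57BL/6 library (open symbols) with the mean of the 2 libraries of a subset (bars), at the region with the largest called difference in the locus of iNKT1 genes (left) and iNKT17 genes (right). The libraries of the 2 subsets lie on opposite sides of the dotted line, which marks a linear value of 5, at all regions plotted, which were chosen for their difference.

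At other iNKT1 genes the region nearest the start site was open in both subsets and a region farther away differed. Cxcr3, a chemokine receptor of type 1 T cells, read 5.95 and 5.82 against 4.37 and 4.37 at its start site, under 3-fold, but 6.19 and 6.22 against -0.41 and -1.15 at a region 3.05 kb upstream (6.98 ± 0.27, limma adjusted p = 1e-09). At Stat4, which transmits IL-12 signals, the promoter read 5.96 and 5.89 against 5.28 and 5.41. An intronic Stat4 region 26.8 kb from the nearest annotated start site read 6.46 and 6.30 against -1.38 and -0.41. Fasl, which encodes the death ligand, had a promoter at 6.45 and 6.33 against 5.90 and 5.94, and a region 11.4 kb downstream of the start site at 4.26 and 4.23 against -3.12 and -2.29. In each of these genes the farther region was called and the region nearest the start site was not, although 5 of the 6 Cxcr3 regions were called.

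Il2rb encodes CD122, on which the cells were sorted. Only 1 of its 11 regions was called, 7.40 kb upstream of the start site, at 5.37 and 5.19 in iNKT1 against 2.09 and 2.00 in iNKT17 cells. Its promoter was open in both subsets, at 8.04 and 8.08 against 7.85 and 7.91. Cd7, a further iNKT1 marker, had 0 called regions of 5.

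Genes of cytotoxic granules and death ligands were open on the iNKT1 side. Of the 65 regions of 12 such genes, 23 (35.4%) were called higher in iNKT1 and 2 (3.08%) higher in iNKT17 cells. Over all tested regions these shares were 9.72% and 10.8%. The promoter of Prf1, which encodes the pore-forming perforin, read 5.95 and 5.73 against 2.49 and 2.40 (3.40 ± 0.21, limma adjusted p = 3.17e-08). All 4 regions of Gzma, the gene of granzyme A, were called, among them a region 13.2 kb downstream of the start site at 5.21 and 5.17 against -2.41 and -4.05. Gzmb, the gene of granzyme B, had a promoter open in both subsets, at 6.61 and 6.57 against 5.75 and 5.85, and 3 of 5 regions called. The exceptions were a region of the Gzmc locus and a region 8.56 kb upstream of Srgn, the gene of the granule proteoglycan serglycin, at -3.12 and -1.65 in iNKT1 against 5.26 and 5.25 in iNKT17 cells.

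Natural killer receptor and adaptor genes were called in the iNKT1 direction. Of 24 genes 23 had a tested region. Each of the 23 carried at least 1 region called higher in iNKT1 cells, beside 16.9% of all genes with tested regions. Of their 101 regions 58 (57.4%) were called higher in iNKT1 and 0 higher in iNKT17 cells, beside 9.72% and 10.8% of all regions. The Klrd1 gene, which encodes CD94, and the neighbouring Klre1 had 9 of 10 regions called each, many of them shared between both loci. A region 4.74 kb upstream of Klrd1 read 4.57 and 4.66 against -3.12 and -4.05. The promoter of Klrc1, which encodes the CD94 partner NKG2A, read 3.94 and 3.67 against -2.41 and -3.02 (6.52 ± 0.90, limma adjusted p = 3.41e-05). The promoter of Fcer1g, the gene of a signalling adaptor of NK receptors, read 3.70 and 3.62 against -1.91 and -3.02. Klrb1c, which encodes NK1.1, was open at its promoter in both subsets, at 4.58 and 4.25 against 3.41 and 3.58, and differed 2.03 kb upstream, at 5.82 and 6.05 against -0.59 and -1.15. Genes within each of the Klra, Klrb and Klrc families are similar in sequence. Any reads shared between them make the assignment to a single gene uncertain.

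Adhesion, homing and receptor signalling genes showed smaller shares. Of 139 regions of integrin and adhesion genes 25 (18%) were called higher in iNKT1 and 4 (2.88%) higher in iNKT17 cells. Itga1, the α1 chain of the collagen receptor, held 8 of the 25, with its promoter at 4.52 and 4.26 against -0.59 and 0.35. Of 161 regions of chemokine receptor and egress genes 20 (12.4%) and 9 (5.59%) were called, beside 9.72% and 10.8% of all regions. This lean depended on the locus, since with 50 kb of flank 29 (9.06%) were called in each direction and by nearest start site 21 (11.9%) and 24 (13.6%). A region 1.84 kb upstream of S1pr5, a receptor for sphingosine-1-phosphate, read 5.50 and 5.63 against -1.38 and 0.44. Genes of the T cell receptor complex and its signalling were called at shares near the background, 36 (13.2%) and 34 (12.5%) of 272 regions. Within this list Cd5 and Cd6, coreceptors that dampen the signal, had 8 regions each called higher in iNKT1 and 0 higher in iNKT17 cells, and Blk, a kinase of the Src family, had 0 and 20.

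**Figure D3:**
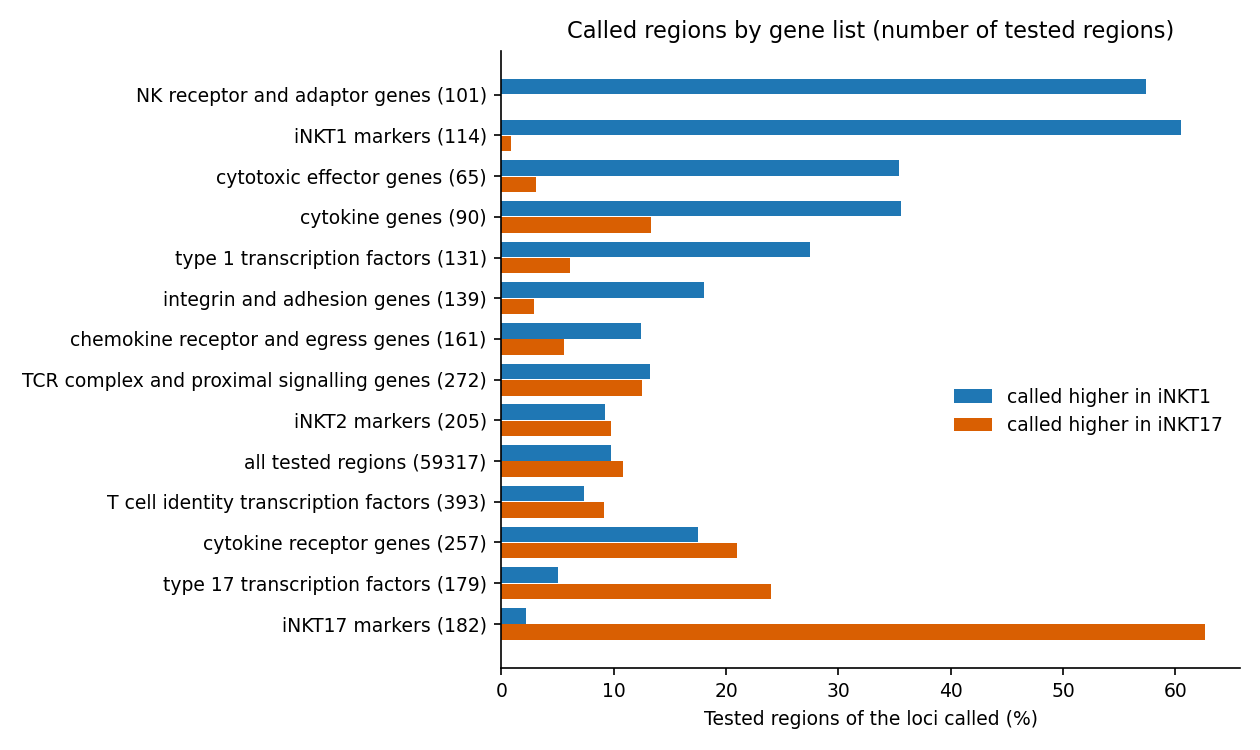
Percentage of the tested regions in the loci of each gene list that were called higher in iNKT1 (blue) or in iNKT17 cells (orange), with the number of tested regions in parentheses. The iNKT1 markers (60.5%) and NK receptor genes (57.4%) stand at one end and the iNKT17 markers (62.6%) at the other, and all tested regions at 9.72% and 10.8%.

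The cytokine genes of iNKT17 cells were open from the promoter on. All 5 regions of Il17a and the only region of Il17f, which encode the IL-17A and IL-17F cytokines, were called higher in iNKT17 cells. The Il17a promoter shown above read 5.80 and 5.91 in iNKT17 cells, and both iNKT1 libraries were at their lowest value. The Il17f promoter read 6.24 and 6.22 in iNKT17 against -3.12 and -1.65 in iNKT1 cells (-8.61 ± 0.71, limma adjusted p = 3.35e-07). Il22, which encodes a cytokine that acts on epithelia, had 3 of 3 regions called, and an intronic region 1.79 kb into the gene read 6.23 and 6.25 against -3.12 and -2.39. The Ccr6 promoter, of the chemokine receptor carried by IL-17 producing cells, read 4.91 and 4.85 against -3.12 and -2.39 (-7.63 ± 0.48, limma adjusted p = 3.29e-08).

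Across the 19 iNKT17 marker genes, 114 of 182 tested regions (62.6%) were called higher in iNKT17 and 4 (2.2%) higher in iNKT1 cells, with a median difference of -2.60. Of these genes 14 had calls in the iNKT17 direction only and 2 in both directions, beside a call higher in iNKT17 cells in 19.5% of all genes. Il1r1, the signalling receptor for IL-1, had 22 of 24 regions called, and Blk had 20 of 21. The Blk promoter read 5.81 and 5.81 in iNKT17 against 1.20 and 1.39 in iNKT1 cells (-4.52 ± 0.24, limma adjusted p = 8.09e-09). Il17re, which encodes a chain of the IL-17C receptor, read 5.45 and 5.32 against 0.67 and 0.91 at its promoter. Sdc1, which encodes the sort marker CD138, had 8 of 10 regions called, with 6.34 and 6.15 against 3.46 and 3.64 at its promoter. Maf, a leucine zipper factor, Aqp3, an aquaporin, and Itgb7, the β7 integrin chain, had 0 called regions of 4, 2 and 9, and the Maf promoter read 6.35 and 6.24 in iNKT1 and 6.62 and 6.58 in iNKT17 cells.

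Il23r and Il12rb2 lie side by side on chromosome 6 and encode the specific receptor chains for IL-23 and IL-12. Of the 27 tested regions of the interval 11 were called higher in iNKT17 and 13 higher in iNKT1 cells, in 2 separate blocks. All 11 of the iNKT17 regions lay between the Il23r start site and 32.3 kb downstream of it. All 13 of the iNKT1 regions lay from 66.8 kb downstream on, from the 3′ end of Il23r across Il12rb2. The region at the Il23r start site read 5.01 and 4.86 in iNKT17 against -0.94 and -2.39 in iNKT1 cells (-6.60 ± 0.76, limma adjusted p = 7.11e-06). An intronic region 8.62 kb into the gene read 5.88 and 6.07 against -0.94 and -0.41 (-6.65 ± 0.46, limma adjusted p = 6.61e-08). The Il12rb2 start site read 6.40 and 6.44 in iNKT1 against 1.79 and 1.60 in iNKT17 cells, a difference of 4.73, and an intronic region 8.85 kb further read 4.66 and 4.83 with both iNKT17 libraries at their lowest value. The iNKT2 libraries had a mean of 4.39 at the Il12rb2 start site and -3.79 at that of Il23r.

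**Figure D4:**
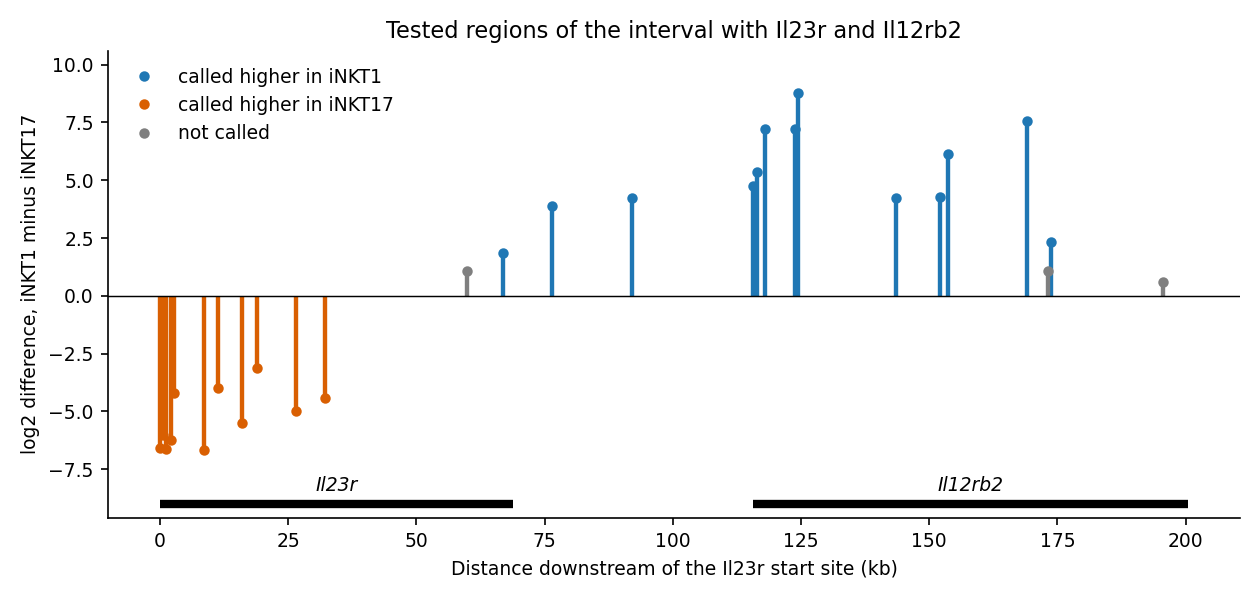
Log2 difference between the C57BL/6 iNKT1 and iNKT17 means (y axis) of the 27 tested regions around Il23r and Il12rb2, by distance downstream of the Il23r start site (x axis, kb), with the gene bodies as black bars. Both genes run in the direction of the axis. The 11 regions called higher in iNKT17 (orange) end at 32.3 kb, and the 13 called higher in iNKT1 cells (blue) begin at 66.8 kb.

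Cytokine receptors as a list were called in both directions, 45 (17.5%) of 257 regions higher in iNKT1 and 54 (21%) higher in iNKT17 cells. The shares of all regions were 9.72% and 10.8%. Il23r, Tgfbr2, Il4ra and Il18rap had calls in both directions, and the other genes in 1 direction or in none. On the iNKT1 side Il21r, the IL-21 receptor, had 11 of 18 regions, Il10ra 7 of 8 and Ifngr1 7 of 14. On the iNKT17 side Il1r1 and Il23r held 22 and 11 of the 54, Ifngr2, the other chain of the IFN-γ receptor, had 3 of 7 called, and Tgfbr2, a receptor chain for TGF-β, had 6 of 28, with 1 more called higher in iNKT1 cells. Among the neighbours of Il1r1 on chromosome 1, Il18r1 and Il1rl1 had 0 called of 10 and 7 regions, Il1r2 had 1 of 3 higher in iNKT17 cells, and Il18rap had 1 in each direction of 7. The Il7r promoter read 5.08 and 4.88 against 5.18 and 5.10 (-0.16 ± 0.13, limma adjusted p = 0.333), while a region 6.44 kb upstream read 1.43 and 0.71 in iNKT1 against 4.87 and 5.06 in iNKT17 cells.

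Cytokine genes had 32 of 90 regions (35.6%) called higher in iNKT1 and 12 (13.3%) higher in iNKT17 cells. The iNKT17 share was near the 10.8% of all regions, and the iNKT1 share stood beside 9.72%. The chemokine genes Ccl3 and Ccl4 had all of their 5 and 2 regions called higher in iNKT1 cells, and the Ccl3 promoter read 3.65 and 3.29 against -1.06 and -2.29. At the type 2 cytokine locus on chromosome 11, Il4 had 5 of 13 and Il13 5 of 9 regions called higher in iNKT1 and 0 higher in iNKT17 cells. The loci of Il4 and Il13 share their region of largest difference. Il5 had 1 of 3 regions called in each direction. A region 6.81 kb upstream of Il4, between Il4 and Il13, read 6.52 and 6.50 in iNKT1 against 2.90 and 3.43 in iNKT17 cells (3.35 ± 0.21, limma adjusted p = 2.96e-08), and the Il4 promoter, at 5.18 and 5.08 against 4.89 and 4.77, was not called. A promoter region 0.91 kb upstream of Il5 read -0.11 and 0.82 in iNKT1 against 6.28 and 6.38 in iNKT17 cells (-5.98 ± 0.27, limma adjusted p = 2.16e-09), and a region 6.04 kb downstream of the Il5 start site read 3.28 and 3.27 against -1.06 and -1.15.

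Transcription factor genes were called mainly outside their promoters, as were the tested regions at large. Of 44 promoter regions of 18 factors of T cell identity, such as Bcl11b, Gata3 and Zbtb16, 0 were called, beside 2.61% and 3.38% of all promoter regions. Of their 342 other regions 29 (8.48%) were called higher in iNKT1 and 36 (10.5%) higher in iNKT17 cells. These shares were below the 13.2% and 14.4% of all regions outside promoters. Zbtb16, which encodes the iNKT lineage factor PLZF, read 6.57 and 6.42 against 6.91 and 6.85 at its promoter and had 9 of 83 regions called higher in iNKT17 cells, a share equal to the 10.8% of all regions. Among the type 17 factors, 2 of 34 promoter regions and 39 of 139 other regions (28.1%) were called higher in iNKT17 cells. Rora, which encodes a nuclear receptor, read 6.79 and 6.82 against 7.13 and 7.01 at its promoter. An intronic Rora region 41.9 kb from the nearest annotated start site read -1.72 and -0.41 in iNKT1 against 4.23 and 4.38 in iNKT17 cells. Among the type 1 factors, 4 of 34 promoter regions (11.8%) and 31 of 96 other regions (32.3%) were called higher in iNKT1 cells. All 9 regions of Zfp683, which encodes the tissue-residency factor Hobit, were called, and a region 5.98 kb upstream read 6.54 and 6.51 against -1.06 and -2.29. For comparison, 18 of 30 promoter regions of iNKT1 markers and 18 of 32 of iNKT17 markers were called.

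A part of the called regions lay close to others of the same direction. When regions at most 12.5 kb apart were joined, 2574 of the iNKT1 and 3201 of the iNKT17 calls stood alone, 427 clusters of at least 3 regions held 33.0% of the iNKT1 calls and 425 held 27.9% of the iNKT17 calls. In iNKT1 cells the fullest were a 65.4 kb stretch over Gimap genes, GTPases of lymphocyte survival, with 21 called of 26 tested regions, and 69.2 kb upstream of and within Runx3, a Runt factor of cytotoxic T cells, with 18 of 23. The Runx3 locus itself had 4 of 22 regions called higher in iNKT1 and 2 higher in iNKT17 cells, the latter outside the cluster. Clusters over Ugcg (16 called regions), Cd2 (14), Ctsd (13), Slamf7 with Ly9 and Cd244a (12), Zfp683 (12), Tbx21 (12) and Rptor (12) were among those that followed. In iNKT17 cells the fullest covered Il1r1, with 23 called of 24 tested regions over 80.4 kb and a median difference of -6.79, and Blk, with 20 of 21 over 46.9 kb. Clusters over Aebp2 and Plekha5 (16), Emb (15), Etv6 (12), Furin and Fes (12), Coro2b (12), Il23r (11) and Myo16 (11) were among those that followed. None of the named clusters held a region called in the opposite direction.

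Counted by gene, Inpp4b, a phosphoinositide phosphatase, had 27 of 44 regions called higher in iNKT1 cells, Coro2a, a coronin that binds actin, 18 of 35, Rptor, the mTORC1 scaffold raptor, 17 of 28, and Cd2, an adhesion receptor, 14 of 16. On the iNKT17 side Plcb4, a phospholipase C, had 22 of 23, Etv6, an ETS repressor, 18 of 22, Emb, which encodes embigin, 16 of 19, and Igf1r, the IGF-1 receptor, 16 of 20. Each of these genes had 0 regions called in the opposite direction, except Rptor with 1. The very long gene models Gm20388 (4434.9 kb) and Fgfr2 (2960.9 kb) collected calls in both directions (37 and 31 of 356, and 18 and 12 of 97).

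Regions were also ranked by their difference over the whole genome. In iNKT1 cells the first was 8.86 kb upstream of Ppp4r2, a phosphatase subunit, at 6.61 and 6.70 against -4.05 and -3.02 (10.19 ± 0.56, limma adjusted p = 1.07e-08), with regions near Tef, Med4 and Nod1 among those that followed, at differences of 9.20 to 9.61. In iNKT17 cells the first was an intronic region near BC053393 at 7.09 and 6.95 against -3.12 and -2.39 (-9.78 ± 0.47, limma adjusted p = 3.7e-09), followed by regions near 4930519G04Rik, Stab2, Prelid2 and Dhx37 with differences of -9.48 to -9.0, and by the Il22 intron. The gene named is the one with the nearest start site. Among promoter regions the largest differences were at Samd3 in iNKT1 cells (5.84 and 5.68 against -3.12 and -3.02) and near Mmp25 in iNKT17 cells (6.08 and 5.89 against -1.72 and -3.79), where the Il17f promoter came next. A set of 79 regions higher in iNKT1 and 298 higher in iNKT17 cells had both libraries of the lower subset at the lowest value and were not ranked.

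The T-box motif had its highest share in regions higher in iNKT1 and the motif of ROR response elements (RORE) in regions higher in iNKT17 cells. The T-box motif AGGTGTGA was in 9.49% of regions higher in iNKT1, 2.06% of those higher in iNKT17 and 2.25% of those not called. RORE motifs, TAGGTCA or TGGGTCA, were in 10.8%, 31.3% and 10.4%, and in 12.7% of all tested regions. Read from the motif, 31.4% of the 1742 tested regions with a T-box motif were called higher in iNKT1 cells, and 26.7% of the 7519 with a RORE were called higher in iNKT17 cells. Over regions outside promoters the shares were 9.47%, 2.11% and 2.73% for the T-box motif and 10.7%, 32.3% and 11.9% for the RORE. ETS motifs (CCGGAAGT or CAGGAAGT) were in 17% of the regions higher in iNKT1, 8.72% of those higher in iNKT17 and 12.6% of those not called. Runt motifs (AACCACA) were in 24.9%, 23.4% and 15.5%, bZIP motifs (TGAGTCA) in 12.5%, 16.3% and 10.4%, and TCF motifs (ATCAAAGG or TTCAAAGG) in 4.94%, 7.56% and 4.50%. The GATA motif AGATAAG was in 7.86%, 7.98% and 5.58%. The shares of the other motifs, in the same order, were NFAT (TTTTCCA) 10.5%, 11.0% and 9.69%, STAT (TTCCNGGAA) 1.80%, 1.64% and 1.74%, NF-κB (GGGATTTCC) 0.884%, 0.812% and 0.755%, Egr (GCGTGGGCG) 0.121%, 0.266% and 0.791%, and the E-box CAGCTG 28.8%, 26.8% and 26.8%. Promoters made up 38.7% of the regions not called, beside 8.78% and 10.2% of the called ones. Outside promoters the Egr shares were 0.114%, 0.226% and 0.325%. The Runt shares there were 25.1%, 24.4% and 20.3%, and the GATA shares 7.79%, 8.4% and 7.03%. There, bZIP motifs were in 12.7% of regions higher in iNKT1 and 13.2% of those not called, and TCF motifs in 4.94% and 5.55%. Both bZIP and TCF motifs kept their highest share in regions higher in iNKT17 cells. The motif shares were not tested, since overlapping motifs and neighbouring regions are not independent.

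**Figure D5:**
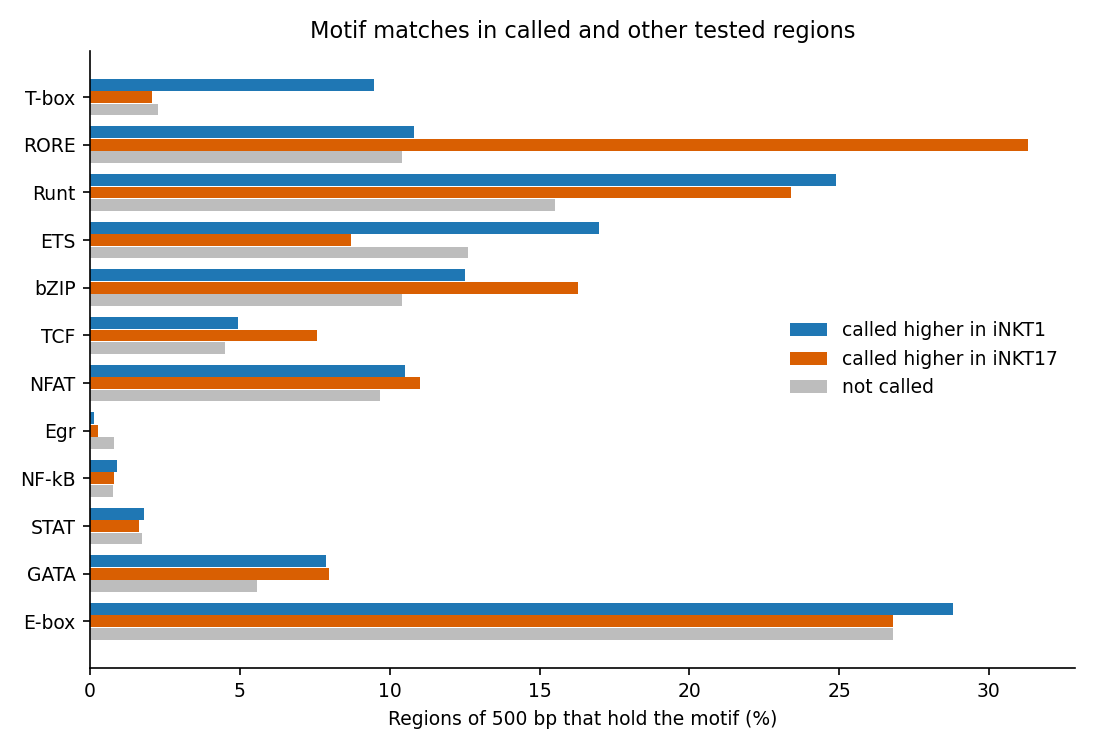
Percentage of 500 bp regions that hold at least 1 match to each motif family on either strand, for regions called higher in iNKT1 (blue), called higher in iNKT17 (orange) and not called (grey). The T-box bar is highest in regions higher in iNKT1 (9.49%) and the RORE bar in regions higher in iNKT17 cells (31.3%).

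The Hivep3-/- libraries gave the same contrast in cells that the C57BL/6 comparison did not use, within a fit that shares its estimate of the spread. There, 5606 of 59142 regions (9.48%) were called higher in iNKT1 and 5815 (9.83%) higher in iNKT17 cells. Of the regions called higher in C57BL/6 iNKT1 cells and tested in Hivep3-/-, 79.4% were called in the same direction and 0 in the opposite one. Of those called higher in C57BL/6 iNKT17 cells 81.0% were called in the same direction and 1 region in the opposite one. The difference between the subsets itself differed between genotypes at few regions. An interaction term in limma called 635 of 60543 regions (1.05%) with a difference further towards iNKT1 in Hivep3-/- mice and 225 (0.372%) further towards iNKT17. These 860 calls fell to 502 without C57BL/6 iNKT1 replicate 1 and to 36 with a pseudocount of 5. Of the regions called in C57BL/6 mice the 860 included 137 that were higher in iNKT1 and 371 that were higher in iNKT17 cells. In Hivep3-/- mice 111 of the 137 went further towards iNKT17 and 322 of the 371 further towards iNKT1. These regions had been selected for a large C57BL/6 difference.

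Markers of other cell types were read from the same regions. Ms4a1 and Blnk (B cells), Lyz2, Csf1r and Adgre1 (myeloid cells), Rag1, Cd8a and Cd8b1 (double positive thymocytes), Krt5 (thymic epithelium) and Trdc (γδ T cells) had 0 tested regions. Over all regions 9.72% were called higher in iNKT1 and 10.8% higher in iNKT17 cells. Of B cell genes 3 (15%) and 1 (5.0%) of 20 regions were called in these directions, the 3 in Ebf1. Of myeloid genes these were 3 (25.0%) and 0 of 12 regions. The 3 were 2 of the 6 Spi1 regions and the only tested Itgam region, which had the larger difference. Of double positive thymocyte genes these were 0 and 1 of 7 regions, of epithelial genes 1 and 0 of 9, and of γδ T cell genes 0 and 2 of 9. Regulatory T cell genes had 4 (8.89%) and 8 (17.8%) of 45 regions called, with 3 of 7 at Foxp3, their lineage factor, higher in iNKT17 cells. The part of other cells in these values was not tested. The iNKT2 marker genes, which bear on the final gate since iNKT2 and iNKT17 cells are both ICOS+, had 19 (9.27%) and 20 (9.76%) of 205 regions called. These pooled shares were close to the background but joined genes of opposite direction. By gene, 4 had calls higher in iNKT1 cells only, 4 in iNKT17 cells only, 2 in both directions and 5 had none. Zbtb16 held 83 of the 205 regions. The sort marker genes had 8 and 15 of 46 regions called. Icos had 7 of 16 regions called higher in iNKT17 cells, and Izumo1r had 7 of 9 called higher in iNKT1 cells.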

How the data were processed

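Per the study's methods and the submitters' processing notes, the authors trimmed reads (Trimmomatic 0.39), mapped them to mm10 with the ENCODE ATAC-seq pipeline, subsampled them for peak calling, merged the peaks of all replicates into regions of 500 bp with chromVAR, counted insertions in each library and normalized them with voom. The deposited values are log2 insertions per kb. All libraries shared a maximum and nearly all upper quantiles, so differences are relative to a common distribution. Columns of per-sample values mapped to no sample numbered 0.

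Group means of the 12 libraries were fitted with limma 3.58.1 in R 4.3.3, with a trend of the spread on the mean, which gave 6 residual and 7.17 prior degrees of freedom. Tests were two-sided, with Benjamini-Hochberg adjustment over all tested regions. A call needed an adjusted p below 0.1 together with a 3-fold difference (1.58 log2 units). The scripts were tested on simulated data. Regions were assigned with basic GENCODE transcripts on mm10, a gene's locus included 10 kb of flank at each end, and called regions at most 12.5 kb apart were joined. Annotation, motifs and figures used Python 3.11.15, pandas 2.3.3, numpy 2.4.6, pysam 0.24.0 and matplotlib 3.10.9.

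Named were members of 20 gene lists, all regions of Tbx21, Ifng and Il23r, and, in each direction, the 10 regions with the largest difference, the 10 genes with the most called regions, the 10 largest clusters and the 5 promoter regions with the largest difference. Some genes and sequences that meet these rules are not reported here. Members and lists were chosen with earlier results of these data known.

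Replicate numbers come from the titles, which number mice across subsets. The deviations of replicates correlated between iNKT1 and iNKT17 at 0.143 in C57BL/6 and 0.166 in Hivep3-/- libraries, and a replicate block was an alternative. Others were fewer libraries in the fit, no trend, other minimums, pseudocounts, scalings and fold thresholds, each replicate left out, and other loci, joining distances and motif windows.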

Additional observations from a re-analysis of the deposited data

Results flagged for a closer look

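At 13 of the named regions reported here the difference between iNKT1 and iNKT17 cells itself differed between genotypes, by the limma interaction term (adjusted p below 0.1 and a 3-fold change of the difference). Over all 60543 regions tested for it, 860 met this rule. Many named regions were chosen for a large C57BL/6 difference, and at all 13 the difference was smaller in Hivep3-/- libraries. The values are the Hivep3-/- difference less the C57BL/6 difference in log2 units, and several rest on values near the lowest of a library, where the size of a difference is uncertain.

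The region 13.2 kb downstream of Ifng had the largest of these values, 5.22 ± 0.84. It read -3.12 and -1.01 in C57BL/6 iNKT1 and 3.19 and 2.65 in C57BL/6 iNKT17 cells, but 1.88 and 1.57 in Hivep3-/- iNKT1 and 1.74 and 1.23 in Hivep3-/- iNKT17 cells, so the subsets overlapped in Hivep3-/- libraries. The region in the Rag2 locus nearest to B230118H07Rik had 2.64, with differences of -2.61 in C57BL/6 and 0.03 in Hivep3-/- libraries.

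Regions higher in C57BL/6 iNKT17 cells with a smaller difference in Hivep3-/- libraries were the Wfdc11 promoter (3.80), the Ccr6 promoter (2.43), an intron of Ikzf2, which encodes the factor Helios (1.81), a region upstream of Ctla4, an inhibitory receptor (1.79), and a region nearest to Pax5 (1.65). The Ccr6 promoter read -0.10 and -0.59 in Hivep3-/- iNKT1 cells, above the C57BL/6 values of -3.12 and -2.39.

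Regions higher in C57BL/6 iNKT1 cells with a smaller difference in Hivep3-/- libraries lay near Tef (-2.75), Trav15d-2-dv6d-2 (-2.56), Cxcr3 (-2.52), Fasl (-2.40), Itgb1bp1 (-2.15) and Cd44 (-1.67). The Cxcr3 region read 1.74 and 0.97 in Hivep3-/- iNKT17 cells, above the C57BL/6 values of -0.41 and -1.15, and the Fasl region -0.10 and 0.19 against -3.12 and -2.29. Whether these follow from the genotype or from the libraries was not tested.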

How the results depend on the processing

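The 12168 called regions were most sensitive to the fold threshold and to a pseudocount. At 2-fold 18788 regions were called, with 9436 higher in iNKT1, and with no fold threshold 34650, with 17939 and 16711 higher in iNKT1 and iNKT17 cells. A pseudocount of 5 left 4987, with 2089 and 2898, which shrinks the fold of regions closed in 1 subset by construction. With the replicate block 12170 regions were called, and the block changed no call of a named region, while the interaction calls went from 860 to 1185. Leaving out 1 replicate gave 11979 to 12447 calls, and 502 to 952 interaction calls, with 502 without iNKT1 replicate 1. Pseudocounts of 1 and 5 gave 536 and 36 interaction calls. Joining regions within 5 kb gave 278 clusters of at least 3 regions in iNKT17 cells in place of 425, and 291 in iNKT1 cells in place of 427. Of 384 named regions, 248 of them called, 87 lost their call with a pseudocount of 5 and 14 with 1, 3 with renewed quantile normalization and 2 to 5 without 1 replicate, and 0 changed direction. Depth is unknown, so the precision of low values cannot be stated.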

Other observations

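Of the 15398 genes with a tested region, 16.9% had a region called higher in iNKT1 and 19.5% a region called higher in iNKT17 cells. In 566 genes both occurred within 1 locus, and whether this exceeds what these shares alone would give was not tested. The genes that follow are examples. Hopx, which encodes a small homeodomain protein, had an open promoter in both subsets, at 5.86 and 5.62 in iNKT1 and 5.52 and 5.40 in iNKT17 cells. An intronic region 3.24 kb from the nearest annotated start site read 6.29 and 6.22 against -0.20 and -0.09. A region 4.51 kb upstream of the gene read -1.72 and -1.65 against 3.47 and 3.78. Foxo1, a forkhead factor of T cell homing and survival, read 4.60 and 4.51 against 0.75 and -0.41 at an intronic region 29.1 kb into the gene, and 1.61 and 1.93 against 4.23 and 4.25 at another, 7.20 kb into the gene. Bach2, a repressor of effector programs, read 3.39 and 3.21 against -0.41 and -0.17 at one intronic region, and 0.15 and -2.39 against 3.64 and 3.37 at another.

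The coronins Coro2a and Coro2b were called on opposite sides, with 18 of 35 regions of Coro2a higher in iNKT1 and 0 in iNKT17 cells, and 15 of 20 regions of Coro2b higher in iNKT17 and 0 in iNKT1 cells.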
